A study of Mus musculus with 6 samples.

Results

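The liver X receptor (LXR) and cholesterol efflux genes described here were Nr1h3, Nr1h2, Abca1, Abcg1, Apoe, Pltp, Mylip, Lpcat3, Arl4c and Smpdl3a, which are 10 of the 41549 genes listed for anti-inflammatory M2 macrophages (Mφs). They were chosen by gene symbol and not by a measured value, though with earlier results of these data known. Each symbol matched a single entry. The study asked whether 5′tRF-Glu(CTC), a fragment that holds the 5′ part of a glutamate tRNA, takes part in Mφ polarization. Bone marrow of wild-type C57BL/6N mice aged 10 to 12 weeks was differentiated for 7 days with macrophage colony-stimulating factor, which gives bone marrow-derived Mφs. These naive Mφs were transfected with a locked nucleic acid antisense to the fragment (αGlu, n = 3 libraries) or with a control antisense (Ctr, n = 3 libraries), and then polarized for 48 h with IL-4 and IL-13. Both groups therefore received a lipofection reagent, an oligonucleotide and both cytokines, and none of these libraries was from untransfected or unpolarized cells. The study states that replicates of primary cells are preparations from different animals, so the p-values measure the spread between such preparations. Whether a Ctr and an αGlu library of the same number share an animal is not stated.

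LXRα and LXRβ are nuclear receptors that bind DNA together with a retinoid X receptor and are switched on by oxysterols and by desmosterol, sterols that build up when a cell holds much cholesterol. In Mφs their targets move cholesterol out of the cell: ABCA1 loads it onto lipid-poor apolipoproteins, ABCG1 passes it to formed lipoprotein particles, and apolipoprotein E carries it away. Other targets limit lipoprotein uptake, transfer phospholipids between particles or alter the fatty acids of membrane phospholipids.

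The antisense that separates the groups is shown with the stretch of the tRNA fragment it was designed against, both written 5′ to 3′. Capitals in the target mark the bases that pair with the antisense, from base 2 to the last.
αGlu antisense: taaccactagaccaccaggg
target in the tRNA fragment: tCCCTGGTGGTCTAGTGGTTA
The antisense has 20 bases and the target 21, and every base of the antisense pairs. Libraries of mRNA do not measure the fragment, so its inhibition was not checked here. The study itself reports that transfecting naive Mφs with this antisense lowered the fragment. Whether the cells of these libraries were among those measured is not stated.

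Total exon counts lay between 17912831 and 30386653 per library, and the 10 genes had between 710 and 162666 counts each in every library. The library αGlu 1 stood apart from the rest of its group. Across the tested genes its log2 CPM (counts per 1000000, with library sizes scaled by trimmed mean of M-values factors) correlated with αGlu 2 and αGlu 3 at a Pearson r of 0.929 and 0.929, and with the Ctr libraries at 0.966 to 0.982. The common dispersion of the fit was 0.0690 with all libraries and 0.0203 without αGlu 1. All 7 Mφ markers, among them Csf1r, Adgre1 and Lyz2, had a mean above 1 CPM, with a summed level of 11820 to 13380 CPM in Ctr and 12580 to 18540 CPM in αGlu. Of 8 IL-4/IL-13 response genes 7 had such a mean over the 6 libraries, with a summed 2805 to 4508 CPM in Ctr and 4011 to 6941 CPM in αGlu. Ccl24 passed only through αGlu 2 and αGlu 3, with 9.07 and 16.2 CPM, and Ccl17 did not pass. Both were under 1 CPM in every Ctr library. Retnla of this list had 540, 246 and 289 CPM in Ctr and 101, 0.0315 and 0.0367 CPM in αGlu, so this M2 marker was close to 0 in αGlu 2 and αGlu 3. Mgl2 had 87.9, 66.3 and 83.9 CPM in Ctr and 10.6, 0.504 and 2.35 CPM in αGlu. Retnla, Mgl2 and Ccl17 were thus lower in every αGlu library, αGlu 1 included. Arg1, Mrc1 and Ccl24 were higher in αGlu 2 and αGlu 3 than in every Ctr library. Arg1 had 24.3, 45.2 and 41.5 CPM in Ctr and 23.5, 1886 and 1792 CPM in αGlu. Mrc1 had 948, 771 and 898 CPM in Ctr and 840.3, 1513 and 2379 CPM in αGlu. For Chil3 and Clec10a, αGlu 3 lay within the Ctr range. Among the Mφ markers the direction also differed. In αGlu 2 and αGlu 3, Csf1r, Adgre1, Itgam, Fcgr1 and Lyz2 lay above every Ctr library, while Cd68 and Mertk lay below all. Cd68 had 1809, 2063 and 2049 CPM in Ctr and 1990, 1237 and 1144 CPM in αGlu. Mertk had 91.1, 91.4 and 93.7 CPM in Ctr and 102.8, 77.7 and 80.5 CPM in αGlu. Lyz2, the largest of the 7, had 7229, 5694 and 6881 CPM in Ctr and 6512, 9189 and 11070 CPM in αGlu. Summed dendritic cell markers reached at most 2.34 CPM, fibroblast markers 7.18, lymphocyte markers 0.346 and mast cell markers 10.4. Summed neutrophil markers were 106 to 159 CPM in Ctr and 186, 539 and 609 CPM in αGlu, nearly all of it from Csf3r, while Ly6g, like Xcr1 of the dendritic cell markers, had 0 reads in every library. The part of these differences in the results for the 10 genes was not tested. In bulk libraries, fewer cells of a type and less RNA per cell cannot be told apart.

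Of the genes examined, Abca1 was higher in all 3 αGlu libraries and Apoe was lower in 2 of the 3, while the fitted levels of the LXR genes Nr1h3 and Nr1h2 were 0.757 and 0.967 of Ctr. Calls required both an adjusted p under 0.1 and a log2 fold change beyond 1 in either direction. With all 6 libraries, edgeR's quasi-likelihood test called 0 of the 10 genes, and it called 0 of all 11933 genes tested, or 0.0%. At an unadjusted p under 0.05 there were 4 of the 10 genes (40%) and 24.7% of all genes tested. DESeq2 called 1 of the 10, Abca1, against 6.24% of its 17909 genes, the edgeR likelihood-ratio test also called Abca1 alone, against 7.53% of all genes tested, and limma-voom called 0. Abca1, Mylip and Arl4c were the 3 genes whose groups did not overlap, which is 30.0% of the 10 against 30.2% of all genes tested. All 3 were higher in αGlu. Over all genes tested, 14.2% were higher without overlap and 15.9% were lower without overlap. A total of 5 log2 fold changes lay above 0 and 5 below, with a median of 0.06 beside 0.02 over all genes tested.

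Leaving out αGlu 1 changed which genes passed. This fit is described because the values of αGlu 1 differed from those of αGlu 2 and αGlu 3. A smaller spread within αGlu therefore follows from the choice, and the p-values of this fit are descriptive. Abca1 rose and Apoe fell past the call rule, which is 2 of the 10 genes (20%) against 18.6% of the 12340 genes then tested. At an adjusted p under 0.1 with no limit on the fold, 7 of the 10 passed, against 49.1% of all genes. Of these 7, Abca1, Arl4c, Pltp and Mylip were higher and Apoe, Abcg1 and Nr1h3 were lower, and the median of the 10 moved to -0.00602. The groups then held 3 and 2 libraries. In αGlu 1 itself, 3 of the 10 genes lay within the range of the Ctr libraries, against 42.6% of all genes tested.

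**Figure D1:**
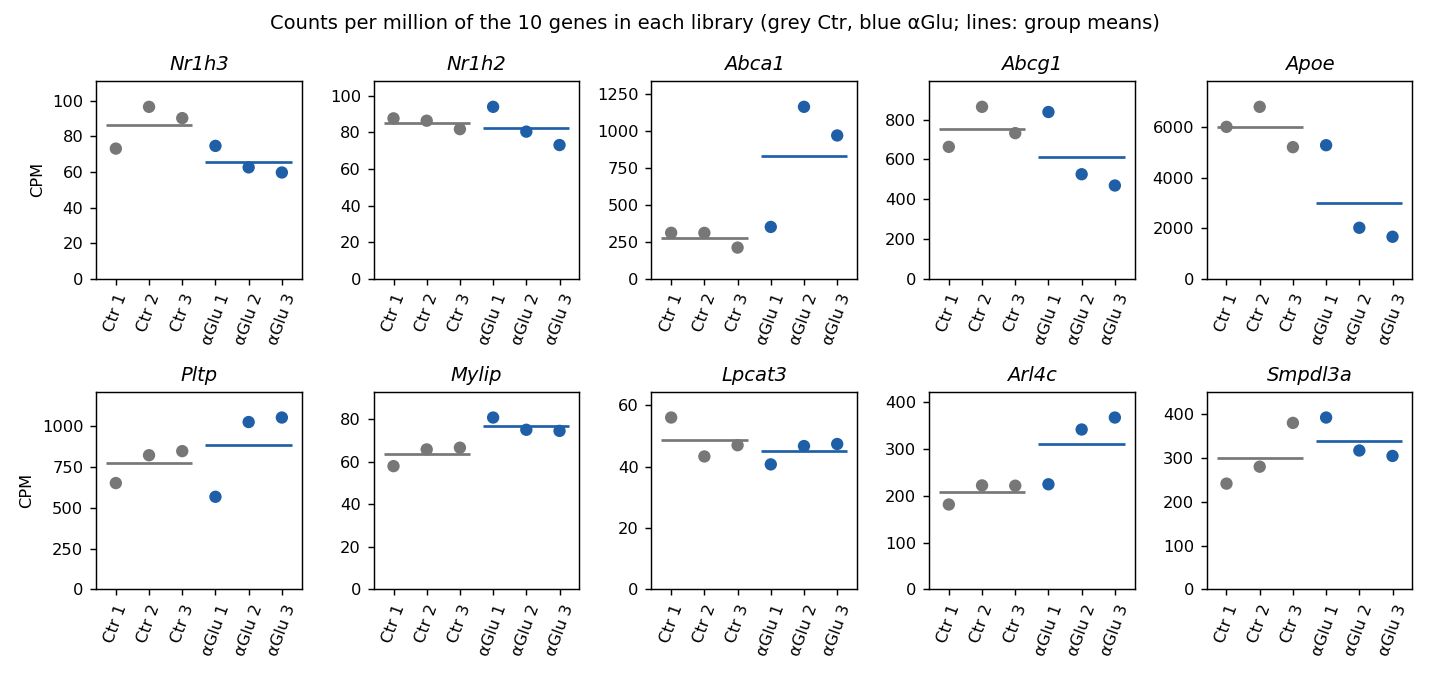
CPM (vertical axes, linear, from 0) of each of the 10 genes in the 3 Ctr libraries (grey points) and the 3 αGlu libraries (blue points), with a line at each group mean. Abca1, Mylip and Arl4c have no αGlu point below the highest Ctr point, and for Abca1, Abcg1, Apoe and Pltp the points of αGlu 2 and αGlu 3 lie close together and away from αGlu 1.

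In CPM, both receptor genes lay below every Ctr library in αGlu 2 and αGlu 3, Nr1h3 by more than Nr1h2. For Nr1h2 in αGlu 2 this depended on the scaling. In deposited TPM, scaled to the same total in each library, it had 76.7, within the Ctr range of 72.85 to 80.4. Nr1h3, which encodes LXRα (GRCm38 chr2:91184061-91202834, minus strand), had 73.1, 96.5 and 90.2 CPM in Ctr 1, 2 and 3 and 74.6, 62.55 and 59.7 CPM in αGlu 1, 2 and 3. αGlu 2 and αGlu 3 were below every Ctr library and αGlu 1 was just above Ctr 1, so the groups overlapped. The log2 fold change of αGlu over Ctr was -0.40 ± 0.14 (SE, quasi-likelihood adjusted p = 0.174), and without αGlu 1 it was -0.51 ± 0.13 (adjusted p = 0.0222). Its exons overlap those of the gene model Gm13783 on the same strand, which had at most 1 read in any library.

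Nr1h2, which encodes LXRβ (chr7:44549616-44553951, minus strand), had 87.6, 86.3 and 81.7 CPM in Ctr and 93.9, 80.3 and 73.0 CPM in αGlu. The αGlu libraries lay on both sides of the Ctr libraries. Its log2 fold change was -0.05 ± 0.11 (quasi-likelihood adjusted p = 0.789), and its sign turned to 0.03 with library size alone as the scaling and also without αGlu 3.

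The exporters differed in direction. Abca1 (chr4:53030787-53159895, minus strand) had 310.4, 309.8 and 211 CPM in Ctr and 350.0, 1160.3 and 967 CPM in αGlu. All αGlu libraries were above all Ctr libraries, but αGlu 1 by little. The fitted log2 fold change was 1.58 ± 0.46, or 2.98-fold, with a quasi-likelihood adjusted p of 0.159 that ranked it 987 of 11933 genes. Without αGlu 1, Abca1 rose 3.83-fold (log2 fold change 1.94 ± 0.19, quasi-likelihood adjusted p = 0.000605), and with all libraries DESeq2 gave an adjusted p of 0.00989. Over 15 alternatives its log2 fold change stayed between 1.25 and 1.94, with adjusted p from 0.000605 to 0.427.

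Abcg1 (chr17:31057675-31117988, plus strand) had 664, 865 and 733 CPM in Ctr and 839, 526 and 469 CPM in αGlu. αGlu 2 and αGlu 3 were below every Ctr library and αGlu 1 was near the highest, so the groups overlapped. Its log2 fold change was -0.30 ± 0.25 (quasi-likelihood adjusted p = 0.460), and without αGlu 1 it was -0.60 ± 0.14 (adjusted p = 0.0153), short of the fold limit.

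The acceptor and the transfer protein also differed in direction. Apoe, the apolipoprotein that Mφs secrete to take up exported cholesterol (chr7:19696109-19699188, minus strand), had 6006, 6798.5 and 5204 CPM in Ctr and 5281, 2017 and 1662 CPM in αGlu. αGlu 1 lay among the Ctr libraries, and αGlu 2 and αGlu 3 lay well below all of them. With all libraries the log2 fold change was -1.01 ± 0.48 (quasi-likelihood adjusted p = 0.243). Without αGlu 1, Apoe fell to 0.305 of the Ctr level (log2 fold change -1.71 ± 0.16, quasi-likelihood adjusted p = 0.000530). With αGlu 2 or αGlu 3 left out instead, the quasi-likelihood adjusted p was 0.536 or 0.526.

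Pltp, which moves phospholipids between lipoprotein particles (chr2:164839518-164857711, minus strand), had 651, 821 and 846 CPM in Ctr and 567, 1024 and 1051.5 CPM in αGlu. αGlu 1 was the lowest of the 6 libraries and the other αGlu libraries were the highest. Its log2 fold change was 0.19 ± 0.27 (quasi-likelihood adjusted p = 0.668), and 0.42 ± 0.13 without αGlu 1 (adjusted p = 0.0470). Its exons overlap those of Ctsa on the opposite strand, which had 24569 to 36852 counts. The kit keeps the strand, but whether the counting used it is not stated, so the Pltp values are uncertain.

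Of the remaining targets, Mylip and Arl4c were higher in every αGlu library. Mylip, an E3 ubiquitin ligase that limits lipoprotein uptake (chr13:45389742-45412022, plus strand), had 58.0, 65.8 and 66.6 CPM in Ctr and 80.8, 75.0 and 74.5 CPM in αGlu. αGlu 1 was the highest library here, unlike for Abca1. The log2 fold change was 0.27 ± 0.08, or 1.21-fold (quasi-likelihood adjusted p = 0.161, DESeq2 adjusted p = 0.0900), and 0.23 ± 0.09 without αGlu 1 (quasi-likelihood adjusted p = 0.0752).

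Arl4c, a small GTPase of the ARF-like family (chr1:88673125-88702221, minus strand), had 181, 222 and 221 CPM in Ctr and 224, 341 and 367 CPM in αGlu. αGlu 1 exceeded the highest Ctr library only slightly. Its log2 fold change was 0.58 ± 0.21, or 1.49-fold (quasi-likelihood adjusted p = 0.180, DESeq2 adjusted p = 0.0909), and 0.76 ± 0.12 without αGlu 1 (quasi-likelihood adjusted p = 0.00336), which is short of the fold limit.

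Lpcat3, the acyltransferase that puts polyunsaturated fatty acids into phospholipids (chr6:124663027-124704418, plus strand), had 56.0, 43.3 and 47.0 CPM in Ctr and 40.7, 46.7 and 47.4 CPM in αGlu. αGlu 2 and αGlu 3 lay within the Ctr range and αGlu 1 below it. The log2 fold change was -0.12 ± 0.12 (quasi-likelihood adjusted p = 0.546) and turned to 0.0027 without Ctr 1. Its exons overlap those of Emg1 on the opposite strand, which had 542 to 1243 counts, fewer than Lpcat3 in every library, and its values carry the same uncertainty as those of Pltp.

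Smpdl3a, a secreted phosphodiesterase related to acid sphingomyelinase (chr10:57794335-57811830, plus strand), had 241, 279.7 and 379.5 CPM in Ctr and 392, 317 and 304 CPM in αGlu. αGlu 1 was just above the highest Ctr library and the others lay within the Ctr range. Its log2 fold change was 0.17 ± 0.20 (quasi-likelihood adjusted p = 0.605), and 0.04 ± 0.19 without αGlu 1 (adjusted p = 0.875).

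**Figure D2:**
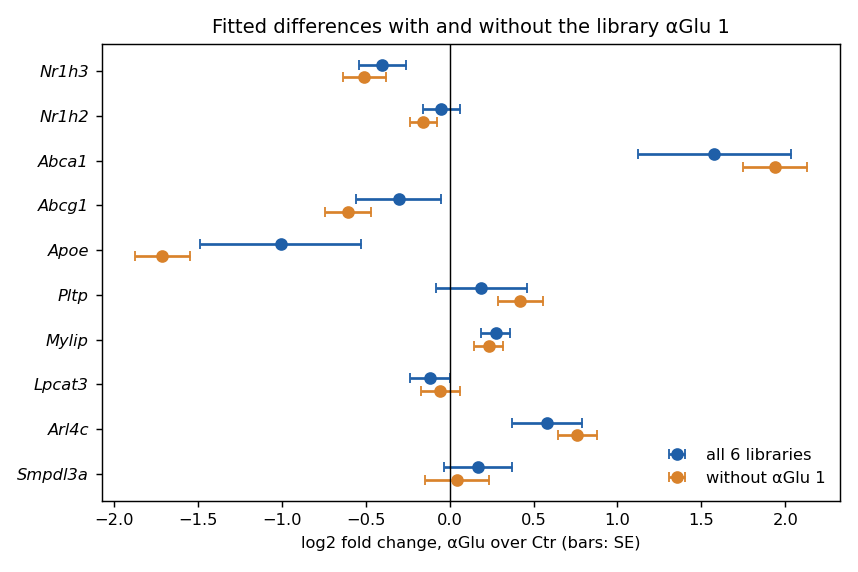
Log2 fold change of αGlu over Ctr (horizontal axis) for the 10 genes (rows), fitted with all 6 libraries (blue) and without αGlu 1 (orange), with bars of 1 SE. Without αGlu 1, Abca1 moves from 1.58 to 1.94, Apoe from -1.01 to -1.71 and Abcg1 from -0.30 to -0.60, with narrower bars.

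Compared per transcript length, in deposited TPM, Apoe exceeded every other gene of the 10 in both groups. In Ctr it had 8467 ± 1110 TPM (SD, n = 3), followed by Pltp with 908 ± 111, Smpdl3a with 438 ± 99.5, Abcg1 with 311 ± 37.8, Arl4c with 114 ± 10.9, Nr1h3 with 104 ± 12.8, Abca1 with 80.7 ± 17.3, Nr1h2 with 76.6 ± 3.77, Mylip with 59.2 ± 3.47 and Lpcat3 with 45.05 ± 6.86 TPM. Arl4c and Nr1h3, Nr1h3 and Abca1, and Abca1 and Nr1h2 overlapped in their library ranges, so their order was not resolved. In αGlu the order was the same except that Abca1, with 257 ± 134 TPM, stood above Arl4c and Nr1h3. There Abca1 overlapped both Abcg1 above it (266 ± 78.8 TPM) and Arl4c below it (182 ± 48.7 TPM), and Nr1h2 overlapped both Nr1h3 and Mylip. The share of Apoe in the summed TPM of the 10 genes was 82.0%, 81.1% and 76.0% in Ctr and 78.0%, 51.6% and 47.3% in αGlu. The share was thus similar in αGlu 1 and Ctr and lower in αGlu 2 and αGlu 3.

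**Figure D3:**
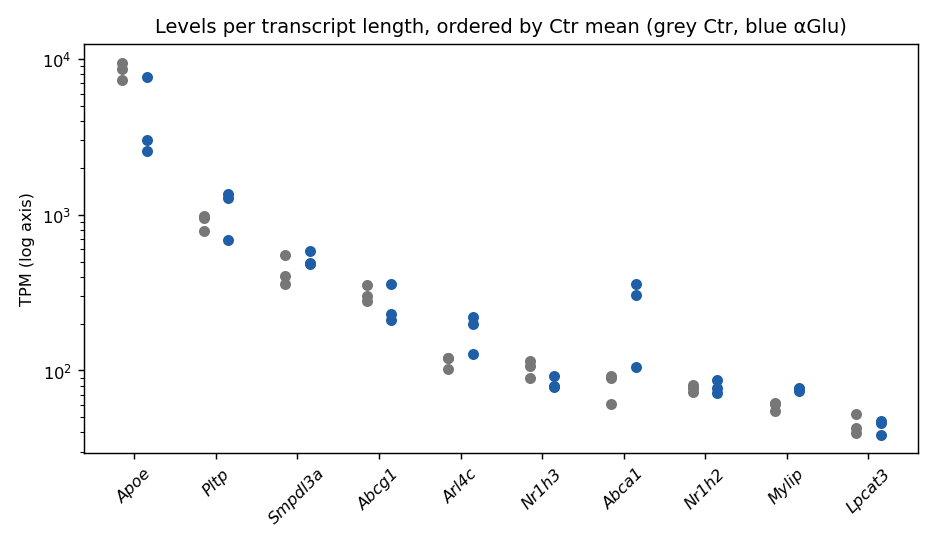
Deposited TPM (vertical axis, log scale) of the 10 genes in order of their Ctr mean, with a point for each Ctr library (grey) and each αGlu library (blue). Apoe stands above all others in every library, and Abca1 goes from the seventh place in Ctr to the fifth in αGlu.

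The balance between related genes was compared within each library, which needs no scaling between libraries. The TPM ratio of Nr1h3 to Nr1h2 was 1.11, 1.49 and 1.47 in Ctr and 1.06, 1.04 and 1.09 in αGlu. Every αGlu library lay below every Ctr library, with αGlu 1 among the other αGlu libraries. The log2 ratio differed by -0.34 (two-sided exact permutation test, p = 0.1, the smallest p that 3 against 3 libraries allow). The ratio of Abca1 to Abcg1 was 0.329, 0.252 and 0.202 in Ctr and 0.294, 1.55 and 1.45 in αGlu. Abca1 thus passed Abcg1 in αGlu 2 and αGlu 3, while αGlu 1 lay within the Ctr range. The log2 ratio differed by 1.77 (two-sided exact permutation test, p = 0.2). These 2 ratios were the only ones compared, and both had an adjusted p of 0.2 by the exact permutation test.

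**Figure D4:**
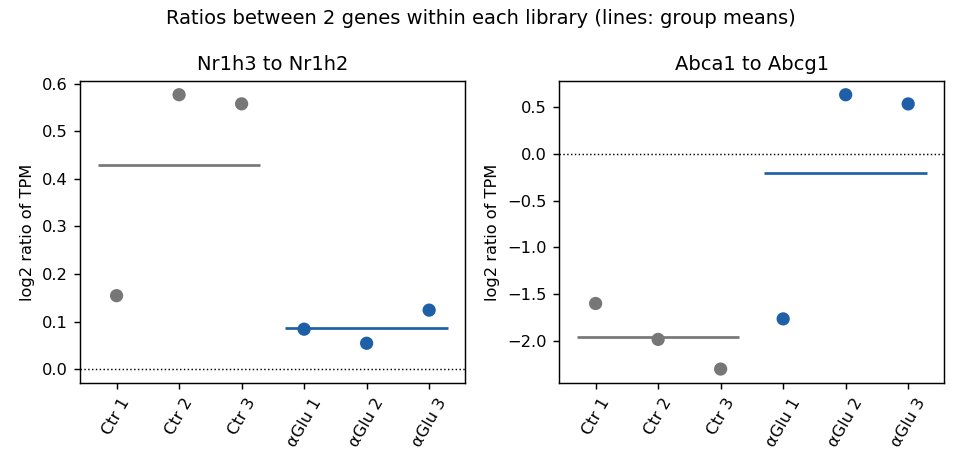
Log2 ratio of deposited TPM (vertical axes) of Nr1h3 to Nr1h2 (left) and of Abca1 to Abcg1 (right) in each library, with a line at each group mean and a dotted line at equal levels. The left panel separates the groups in all 6 libraries, and in the right panel only αGlu 2 and αGlu 3 lie above equal levels.

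The genes whose levels most resembled Abca1 or Abcg1 across the 6 libraries were found by Pearson r of log2 CPM among 8404 tested genes whose mean log2 CPM reached 3. The values describe these 6 libraries, in which αGlu 2 and αGlu 3 lay far from the others for both genes. For Abca1 they were Sgpl1, a sphingosine-1-phosphate lyase (r = 0.999), Pld1, a phospholipase D (r = 0.998), and Sema6b, a semaphorin (r = 0.996). Sgpl1 had 702, 706 and 664 CPM in Ctr and 711, 832 and 821 CPM in αGlu, with αGlu 2 and αGlu 3 highest as for Abca1, over a narrower range. For Abcg1 they were Tmsb10, a thymosin that binds actin (r = 0.998), Cyfip2, a subunit of the WAVE complex (r = 0.997), and Zfand2a, a zinc finger protein induced by proteotoxic stress (r = 0.995). Tmsb10 had 193, 291 and 232 CPM in Ctr and 273, 147 and 117 CPM in αGlu, again with αGlu 1 near the highest Ctr library.

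Promoters of 8 of the 10 genes were read from RefSeq (GRCm38.p6), 250 bases before to 50 bases after each start. They were searched on both strands for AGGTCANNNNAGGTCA, the direct repeat with a spacer of 4 bases that LXR and its partner bind, with at most 3 mismatches over the 12 fixed bases. Abca1 and Arl4c held a match and the other 6 genes did not. Of all 32851 promoters of this length, 7189, or 21.9%, held such a match, and 0.0152% held the exact sequence. Both matches had 3 mismatches and read on the strand opposite to the gene, with the half-sites in capitals.
Abca1: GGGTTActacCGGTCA
Arl4c: GGGTCAggcgGGGTCT
On the gene's strand, the matched stretches began at position -67 in Abca1 and -75 in Arl4c from the RefSeq start. Both promoters are shown because they alone held a match. Mylip, which was also higher in every αGlu library, held none. They are written on the gene's strand, so the capitals are the complement of the half-sites above, read backwards. The Abca1 promoter is at chr4:53159846-53160145 and the Arl4c promoter at chr1:88702142-88702441, both on the minus strand.
Abca1 promoter: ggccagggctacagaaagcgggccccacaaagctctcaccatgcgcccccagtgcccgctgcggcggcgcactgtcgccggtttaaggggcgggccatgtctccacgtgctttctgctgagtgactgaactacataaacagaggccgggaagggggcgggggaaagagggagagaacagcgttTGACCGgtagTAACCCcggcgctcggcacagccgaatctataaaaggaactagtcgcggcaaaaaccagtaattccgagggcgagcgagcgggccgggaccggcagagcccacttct
Arl4c promoter: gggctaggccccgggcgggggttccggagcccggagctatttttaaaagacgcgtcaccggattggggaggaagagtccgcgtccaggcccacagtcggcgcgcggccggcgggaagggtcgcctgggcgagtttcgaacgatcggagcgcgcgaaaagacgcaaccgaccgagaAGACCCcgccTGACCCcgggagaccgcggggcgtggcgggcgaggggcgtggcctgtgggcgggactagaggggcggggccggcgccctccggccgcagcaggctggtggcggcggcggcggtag
A match describes the letters only, and binding was not measured in these cells.

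Around the 10 genes, 5 lists of pathway genes were read from the same fit. The edgeR quasi-likelihood test called 0 genes in each, as it did over the whole table, and limma-voom also called 0, so the genes with the smallest unadjusted p of each list are described. Among 14 other LXR targets, 11 were tested, with a median log2 fold change of -0.01. Of these, 3 (27.3%, against 24.7% of all genes) had an unadjusted p under 0.05. DESeq2 and the likelihood-ratio test each called 2 of the 11 (over all genes, 6.24% of the 17909 that DESeq2 tested and 7.53%). Arg2, the mitochondrial arginase, had 1.04, 2.05 and 2.18 CPM in Ctr and 1.78, 84.4 and 80.3 CPM in αGlu. It was thus near 0 in 4 libraries and high in αGlu 2 and αGlu 3 (log2 fold change 4.98 ± 1.33, quasi-likelihood adjusted p = 0.157). Apoc2, the apolipoprotein that activates lipoprotein lipase, had 5.22, 3.55 and 0.742 CPM in Ctr and 5.85, 21.3 and 16.5 CPM in αGlu (log2 fold change 2.20 ± 0.75, quasi-likelihood adjusted p = 0.172). Fasn, the fatty acid synthase, had 92.7, 67.2 and 46.8 CPM in Ctr and 30.8, 36.9 and 44.2 CPM in αGlu, with no overlap. Its log2 fold change was -0.89 ± 0.27 (quasi-likelihood adjusted p = 0.160). Without αGlu 1, 6 of the 11 were called (54.5%, against 16.9% of the 11933 genes tested with all 6 libraries), 3 higher and 3 lower.

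Partners, corepressors and coactivators of LXR were the flattest list. Of 14 genes 13 were tested, with a median log2 fold change of -0.0033, and 1 (7.69%, against 24.7% of all genes) had an unadjusted p under 0.05. DESeq2, the likelihood-ratio test and the fit without αGlu 1 each called 0. Rxrb, a retinoid X receptor that pairs with LXR, had 42.0, 37.9 and 39.0 CPM in Ctr and 45.3, 44.5 and 46.7 CPM in αGlu, with no overlap (log2 fold change 0.20 ± 0.07, quasi-likelihood adjusted p = 0.176). The coactivator Crebbp had a log2 fold change of 0.23 ± 0.11 (adjusted p = 0.251) and the corepressor subunit Hdac3 one of -0.12 ± 0.06 (quasi-likelihood adjusted p = 0.28).

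The PPAR family, nuclear receptors that respond to fatty acids and raise LXR targets in Mφs, had 2 tested members of 3. Pparg had 201, 217 and 201 CPM in Ctr and 183, 13 and 12.4 CPM in αGlu. αGlu 1 was close to Ctr, and αGlu 2 and αGlu 3 held little of it. The log2 fold change of Pparg was -1.58 ± 1.08 (quasi-likelihood adjusted p = 0.373), and without αGlu 1 it fell by 4.03 on the log2 scale (quasi-likelihood adjusted p = 7.4e-06). Ppard had 20.4, 20.4 and 19.0 CPM in Ctr and 22.9, 33.7 and 31.3 CPM in αGlu. It was higher in every αGlu library (log2 fold change 0.56 ± 0.15, quasi-likelihood adjusted p = 0.157), and neither DESeq2 nor the likelihood-ratio test called either gene.

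Enzymes that make or clear oxysterols differed in direction. Of 6 genes described 3 passed the low-count filter, and 2 of these, Cyp27a1 and Sult2b1, were lower in every αGlu library, as were 15.9% of all genes tested. Both had an unadjusted p under 0.05, as did 24.7% of all genes tested, and the median log2 fold change of the 3 was -0.73. The likelihood-ratio test called Sult2b1, and DESeq2 called 0 of the 3 but called Ch25h, the 25-hydroxylase of cholesterol, which did not pass the filter with all 6 libraries. Ch25h was higher in every αGlu library, with under 1 CPM in Ctr and αGlu 1 and over 20 CPM in αGlu 2 and αGlu 3. Cyp27a1, which makes an oxysterol ligand, had 40.1, 42.0 and 48.9 CPM in Ctr and 37.0, 20.1 and 21.8 CPM in αGlu (log2 fold change -0.73 ± 0.25, quasi-likelihood adjusted p = 0.171). Sult2b1, which inactivates oxysterols by sulfation, stayed under 1 CPM in every library (log2 fold change -1.14 ± 0.36, quasi-likelihood adjusted p = 0.162). Without αGlu 1, Cyp27a1 and Sult2b1 were called and fell, and Ch25h was called and rose. Hsd3b7, a dehydrogenase of oxysterol breakdown, had 75.3, 74.9 and 63.9 CPM in Ctr and 60.3, 93.0 and 93.2 CPM in αGlu, with αGlu 1 the lowest library and the other αGlu libraries the highest (log2 fold change 0.20 ± 0.19, quasi-likelihood adjusted p = 0.498).

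Of 16 genes for trafficking, storage and hydrolysis of cholesterol, 15 were tested, with a median log2 fold change of -0.09. An unadjusted p under 0.05 was found for 4 (26.7%, against 24.7% of all genes). DESeq2 and the likelihood-ratio test each called 1 of the 15 (over all genes, 6.24% of the 17909 that DESeq2 tested and 7.53%). The fit without αGlu 1 called 4 (26.7%, against 16.9% of the 11933 genes tested with all 6 libraries), of which 1 was higher. Stard4, a carrier of free cholesterol in the cytosol, had 37.5, 22.2 and 21.9 CPM in Ctr and 9.92, 10.3 and 12.7 CPM in αGlu. Every αGlu library lay below every Ctr library, with αGlu 1 the lowest (log2 fold change -1.31 ± 0.25, quasi-likelihood adjusted p = 0.149). Scarb1, the receptor for high-density lipoprotein, had 74.6, 72.7 and 69.3 CPM in Ctr and 57.8, 38.0 and 36.3 CPM in αGlu (log2 fold change -0.72 ± 0.19, quasi-likelihood adjusted p = 0.156). Gramd1b, which carries cholesterol from the plasma membrane to the endoplasmic reticulum, had 75.9, 82.2 and 73.4 CPM in Ctr and 93.2, 166 and 178 CPM in αGlu (log2 fold change 0.92 ± 0.25, quasi-likelihood adjusted p = 0.157). Neither of the last pair overlapped between groups.

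**Figure D5:**
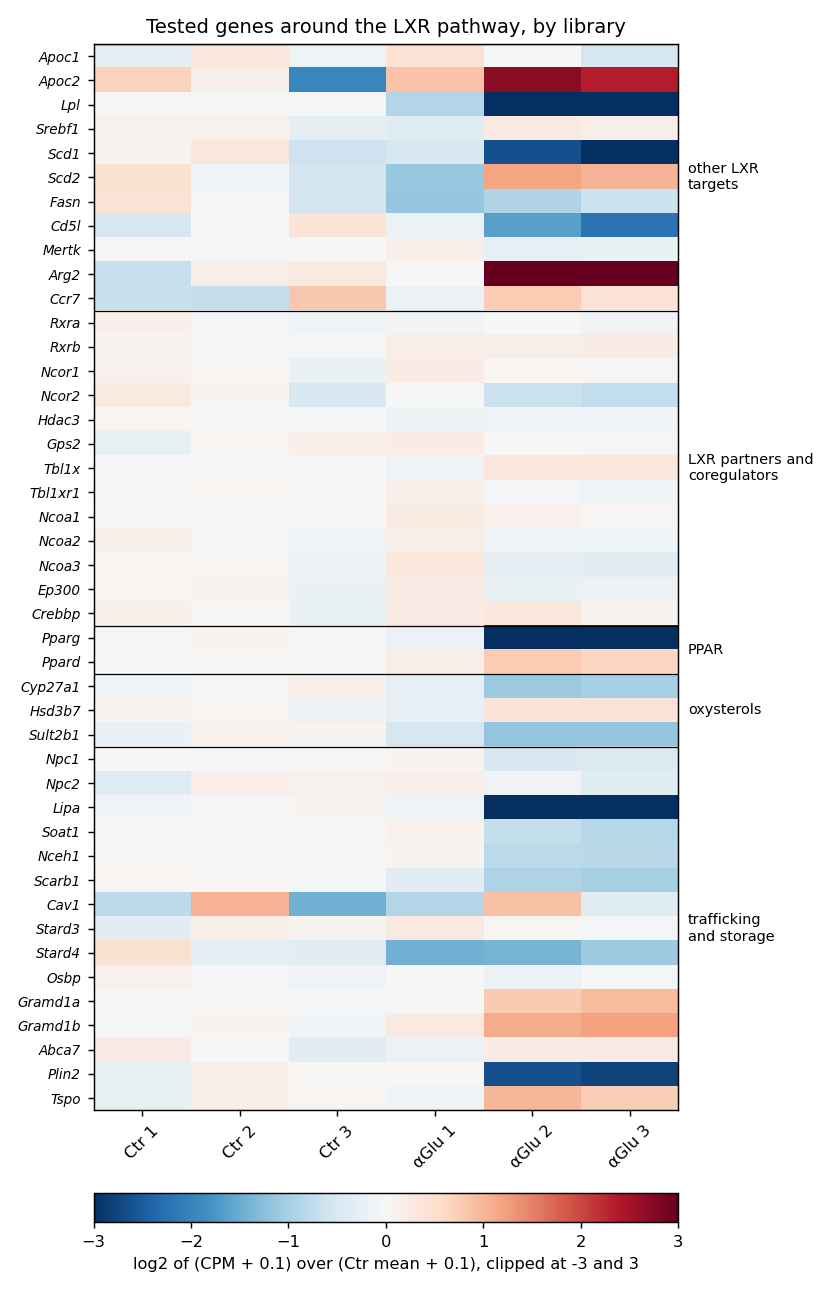
Each of the 44 tested pathway genes (rows, grouped by list) in the 6 libraries (columns), coloured by log2 of its CPM plus 0.1 over the Ctr mean plus 0.1, with colours cut at -3 and 3. Stard4 and Fasn are blue in all 3 αGlu columns, whereas Lpl, Pparg, Lipa and Plin2 are darkest in αGlu 2 and αGlu 3, and the partners of LXR stay pale throughout.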

How the data were processed

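RNA was purified with a miRNeasy micro kit, and mRNA libraries were made with an Illumina kit that keeps the strand. Per the study's methods, the authors used the QIAGEN RNA-seq Analysis Portal to annotate and normalize reads. The submitters' processing notes name GRCm38. Not given in the sources used here were the aligner, the annotation release, the use of strand and the handling of multi-mapping reads, and a strand-blind count would add reads of opposite-strand neighbours. The authors deposited raw exon counts, RPKM (counts per kilobase of exon and 1000000 reads) and TPM (scaled to the same total in each library) for each gene and library. A further deposited column of normalized values was not used. The table has 1 entry without a gene name, which was left out.

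Counts were filtered with filterByExpr (minimum count 10, minimum total 15), scaled by TMM factors and fitted with the edgeR 4.0.16 quasi-likelihood test in R 4.3.3, with the group as the only term, two-sided, adjusted by Benjamini-Hochberg over all genes tested. All 10 genes passed the filter. Each SE is the absolute log2 fold change divided by the square root of F. Alternatives were DESeq2 1.42.0, limma 3.58.1 (voom), the likelihood-ratio test, other scalings, filters and thresholds, the replicate number as a block and each library left out. Log2 CPM has a prior count of 2. Scripts were tested on simulated data. Locations come from GENCODE M21, which holds 41474 of the 41549 identifiers.

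The members, gene lists and tests were chosen with earlier results of these data known. By the rule for naming, the text names all 10 genes, every called gene of a pathway list or, with fewer than 3 called, its 3 genes of smallest unadjusted p, and the 3 genes most like Abca1 and Abcg1. Correlations between pairs of the 10 genes are not given, because αGlu 1 stands apart. Some genes chosen for the pathway lists are not reported here.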

Additional observations from a re-analysis of the deposited data

How the results depend on the processing

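The quasi-likelihood test called 0 genes under each scaling, filter and threshold tried. DESeq2 called 1117 genes and the edgeR likelihood-ratio test 899, and each called 1 of the 10 genes. Leaving out 1 library at a time gave 0 to 2290 genes and 0 to 2 of the 10, and every call came from the fit without αGlu 1. The cause of these differences was not tested. Of 150 alternative fits of the 10 genes, 3 reversed a sign: Nr1h2 was at 0.031 with library size alone and ran from -0.16 to 0.034 with 1 library left out (positive without αGlu 3), and Lpcat3 ran from -0.20 to 0.0027 (positive without Ctr 1). Over all genes the median was 0.02, and 0.10 with library size alone. With 1 library left out, the median log2 fold change ran from -0.22 to 0.13 for the other LXR targets, from -1.66 to -0.28 for the PPAR family and from -1.06 to -0.57 for oxysterol enzymes, whose median was -0.26 with a filter of CPM above 1 in 3 libraries, which left fewer genes. The log2 ratio of Nr1h3 to Nr1h2 ran from -0.48 to -0.27 and that of Abca1 to Abcg1 from 1.35 to 2.55. The order of levels was the same in RPKM.

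With the replicate number as a replicate block, 17 genes were called (9 higher, 8 lower), none of them among the 10. Libraries of the same number deviated together at r = 0.0764, 0.0646 and 0.154, and those of different numbers at -0.112 to 0.0459. Each library correlated best with its own number. The main fit still used the group alone, because a pairing is not stated, so it may ignore preparations shared between the groups. Paired by number, the exact sign-flip permutation p was 0.25, the smallest that 3 pairs allow, for the ratio of Nr1h3 to Nr1h2 and 0.5 for that of Abca1 to Abcg1.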

Other observations

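Among the pathway genes outside the rule for naming, several with large differences were chosen after their values were seen. Ch25h, the enzyme that makes 25-hydroxycholesterol, had 0.182, 0.167 and 0.0464 CPM in Ctr and 0.401, 20.7 and 21.2 CPM in αGlu. The low-count filter removed it with all 6 libraries, DESeq2 called it (adjusted p = 3.9e-06), and it was called without αGlu 1. Lpl, lipoprotein lipase, had 3748, 3671 and 3563 CPM in Ctr and 1977, 102 and 101 CPM in αGlu. For Lpl, unlike Abca1 and Apoe, αGlu 1 lay clearly between Ctr and the other αGlu libraries. Lipa, the lysosomal acid lipase that frees cholesterol from its esters, had 2284, 2427 and 2540.5 CPM in Ctr and 2228, 281 and 289 CPM in αGlu. Plin2, a coat protein of lipid droplets, had 1048, 1358 and 1240.5 CPM in Ctr and 1249, 196 and 178 CPM in αGlu. Lpl, Lipa and Plin2 were not called with all 6 libraries (quasi-likelihood adjusted p = 0.275, 0.336 and 0.369) and fell without αGlu 1.

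Srebf1, the LXR target that drives fatty acid synthesis, had 80.9, 80.2 and 59.9 CPM in Ctr and 57.2, 89.3 and 85.0 CPM in αGlu, with a log2 fold change of 0.07 ± 0.21 (quasi-likelihood adjusted p = 0.846). Its groups overlapped, with αGlu 1 the lowest of the 6 libraries. Scd1 and Scd2, desaturases that act on the same substrates, differed in direction. Scd1 had 62.1, 72.9 and 37.1 CPM in Ctr and 41.2, 9.16 and 4.73 CPM in αGlu, and Scd2 had 298, 204 and 149 CPM in Ctr and 99.4, 492 and 438 CPM in αGlu. Without αGlu 1 both were called, Scd1 lower by a log2 fold change of -3.04 and Scd2 higher by 1.10.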
